A study of Mus musculus with 7 samples.

Results

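BMAL1 and RNA polymerase II (RNAP2) were compared gene by gene in gastrocnemius muscle, from the 2 BMAL1 and the 2 RNAP2 peak lists made by chromatin immunoprecipitation followed by sequencing (ChIP-seq) at Zeitgeber time (ZT) 4, that is 4 h after lights on. All lists came from WT male C57BL/6J mice that were 5 months old, lived on 12:12 light:dark and ate standard chow. Peaks that overlapped by at least 1 bp were merged, and a region was kept when each of the 2 replicate lists of a factor had a peak in it. A protein-coding gene of GENCODE M21 was counted for a factor when a region reached to 10 kb or less from any of its transcription start sites (TSSs). By that rule 8753 of 21938 protein-coding genes had at least one factor, of which 545 had both, 383 had BMAL1 only and 7825 had RNAP2 only. The whole muscle was used, so a factor that binds in some nuclei and one that binds weakly in all of them cannot be told apart.

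BMAL1 is the transcription factor that, paired with CLOCK, binds E-boxes (CACGTG) and drives the positive limb of the circadian clock. Its targets include the *Per* and *Cry* genes, which repress BMAL1:CLOCK, the *Nr1d* genes, which encode REV-ERB repressors of *Arntl* (the gene of BMAL1), and output regulators such as *Dbp*. RNAP2 transcribes protein-coding genes and accumulates near the TSSs of genes in use, so its regions mark genes that are transcribed or poised.

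The E-boxes nearest to the BMAL1 summits of 9 clock genes with both factors are shown first, because they lie in strong BMAL1 regions, where the E-box was more frequent than in weak ones. Each line gives 30 bases 5′ to 3′ on the strand of the gene, with the E-box in capitals and GRCm38 (mm10) coordinates. The *Per2* line shows the variant CACGTT in capitals, since no CACGTG lay within 100 bp of that summit. *Cry1* and *Per3*, clock genes with both factors, had neither motif within 100 bp of their summits and are not shown.
Per1 (chr11:69094871-69094900, plus strand): tgagccagcctgCACGTGttccctacagct
Ciart (chr3:95882327-95882356, minus strand): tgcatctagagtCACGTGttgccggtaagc
Nr1d1 (chr11:98783530-98783559, minus strand): ctcgggcagggcCACGTGccccaccccctc
Nr1d2 (chr14:18238558-18238587, minus strand): ggcgggcggagaCACGTGaggccgcggggc
Tef (chr15:81811042-81811071, plus strand): ctgctgccgctcCACGTGaccctcggggct
Dbp (chr7:45707700-45707729, plus strand): acattccctcgcCACGTGagtccgccttcc
Cry2 (chr2:92423855-92423884, minus strand): cccttcccctgcCACGTGccaggggagggc
Bhlhe40 (chr6:108659431-108659460, plus strand): ccgcgtccgggcCACGTGaagcgtcacgcc
Bhlhe41 (chr6:145855879-145855908, minus strand): cgcgtgctttcaCACGTGtcactgcgcacg
Per2 (chr1:91459302-91459331, minus strand): agcgcgcgcggtCACGTTttccactatgtg

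The 201 bases centred on the BMAL1 summit are shown for *Per1*, which has 1 E-box, for *Tcap*, the strongest muscle structural gene with both factors, and for *Igsf8*, the gene with BMAL1 only that comes after *Per2* in strength. Neither the *Tcap* nor the *Igsf8* window holds CACGTG.
Per1 (chr11:69094795-69094995, plus strand): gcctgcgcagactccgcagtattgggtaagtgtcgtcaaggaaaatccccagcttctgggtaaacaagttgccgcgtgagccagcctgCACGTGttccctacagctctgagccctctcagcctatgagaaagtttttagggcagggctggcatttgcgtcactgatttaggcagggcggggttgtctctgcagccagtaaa
Tcap (chr11:98383457-98383657, plus strand): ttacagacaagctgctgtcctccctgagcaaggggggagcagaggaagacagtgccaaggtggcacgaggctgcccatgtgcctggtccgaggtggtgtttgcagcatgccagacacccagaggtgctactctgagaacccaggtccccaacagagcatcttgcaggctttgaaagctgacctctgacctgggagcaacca
Igsf8 (chr1:172310014-172310214, plus strand): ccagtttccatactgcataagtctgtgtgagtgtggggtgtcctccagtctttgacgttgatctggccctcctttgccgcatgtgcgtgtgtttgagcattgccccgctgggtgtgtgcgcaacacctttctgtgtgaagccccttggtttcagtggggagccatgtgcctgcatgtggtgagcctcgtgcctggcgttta

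The lists differed widely in size. BMAL1 replicates 1 and 2 held 34737 and 177669 peaks on chromosomes, and the RNAP2 replicates 87861 and 168821. The authors called peaks at p 0.05, and at a q-value of 0.05 only 92 and 36 BMAL1 peaks and 10992 and 3622 RNAP2 peaks would remain. Present in both replicates were 2742 BMAL1 and 10752 RNAP2 regions, and 837 (30.5%) and 7461 (69.4%) of them lay within 10 kb of a protein-coding TSS. The strength of a region is given below as the lower −log10 p of its replicates. All 10 markers of skeletal muscle fibres had RNAP2, with strengths of 7.70 to 46.8, against 0 of 6 hepatocyte, 0 of 6 endothelial, 0 of 5 adipocyte, 1 of 5 neuronal and 2 of 6 immune markers. RNAP2 was also present at 3 of 5 fibroblast markers and at *Myf5* among 4 satellite cell markers. With 2 lists per factor, the smallest p of a 2-sided exact permutation test is 0.333, so differences between classes are described by counts and by both replicates, without a test across animals.

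RNAP2 was found more often at BMAL1 genes than at genes hit by displaced BMAL1 regions. The 545 genes with both factors were 2.48% of all protein-coding genes, where 4.23% had BMAL1 and 38.2% had RNAP2. When the BMAL1 regions were shifted along each chromosome 1000 times, a mean of 329 genes had both (range 268 to 392), so the observed count was 1.66 times the mean and above every shift. Shifts of 50 to 200 kb, which keep a region in its own neighbourhood, gave a mean of 364 (range 301 to 416). Genes with BMAL1 only numbered 383 (1.75%), inside the range of the circular shifts (mean 414, range 358 to 510). Of all 928 BMAL1 genes, 58.7% had RNAP2, against 44.3% on average after circular shifts (range 38.4 to 50.5%) and 46.7% after local ones (range 41.3 to 53.1%).

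Some of this overlap was counted from different promoters of the same gene or from shared regions. The 545 genes drew on 452 distinct BMAL1 regions, and 141 BMAL1 regions lay near several protein-coding genes. Both factors were within 10 kb of one and the same TSS in 363 genes, against a mean of 218 in the shifts (range 165 to 257), and at different TSSs in the other 182. Genes with both had a median of 6 annotated TSSs, against 4 for BMAL1 only, 5 for RNAP2 only and 2 for neither.

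**Figure D1:**
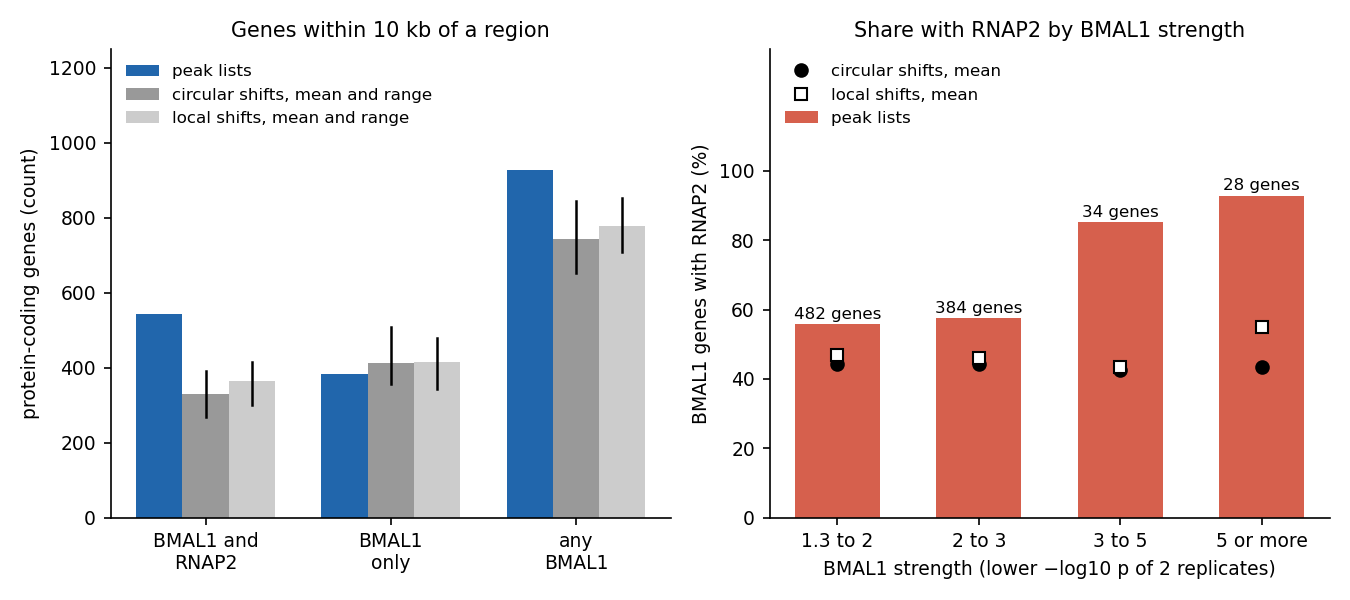
Left, protein-coding genes with both factors, with BMAL1 only and with any BMAL1 region (bars in blue), beside the mean (bars in grey) and the range (black lines) of 1000 circular and 1000 local shifts. Right, percentage of BMAL1 genes that had RNAP2, by strength of the BMAL1 region, with shift means as symbols. The 545 genes with both lie above both shift ranges, the 383 with BMAL1 only lie within them, and the share with RNAP2 is 92.9% in the strongest class.

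Genes with a strong BMAL1 region nearly always had RNAP2, while genes with one of the many weak regions had it less often. All BMAL1 regions were shifted, also strong ones with no protein-coding TSS within 10 kb, and the genes hit were grouped by strength. Among 28 genes with a BMAL1 strength of 5 or more, drawn from 20 regions, 92.9% had RNAP2, against means of 43.5% in circular and 55.0% in local shifts. These 26 genes with RNAP2 exceeded the highest circular shift (15 genes) but not the highest local one (27 genes). Among 34 genes with a strength of 3 to 5 it was 85.3%, against 42.7% in circular shifts, and the 29 with RNAP2 exceeded the highest circular and local shifts (19 and 24 genes). The 384 genes with a strength of 2 to 3 had RNAP2 in 57.6% and the 482 genes below 2 in 55.8%, both against 44.3% in circular shifts. Of the 62 genes with a strength of 3 or more, drawn from 45 distinct BMAL1 regions, 55 had RNAP2 (88.7%, exact 95% interval 78.1 to 95.3%). That interval covers counting error only and treats genes that share a region as separate. The share of such genes with RNAP2 was 52.2% and 51.5% when BMAL1 regions and their strength were taken from replicate 1 or replicate 2 alone. It was 98.4% when either RNAP2 replicate was left out, but far more of the 21938 protein-coding genes then had RNAP2. Without RNAP2 replicate 1, 17522 genes had RNAP2 only and 890 had both. Without RNAP2 replicate 2 these were 15192 and 831, against 7825 and 545 when both lists were required.

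Typical BMAL1 regions had similar strengths in the classes, and the larger difference lay in the upper tail. The median −log10 p of BMAL1 was 2.48 in replicate 1 and 2.40 in replicate 2, both at genes with both factors and at genes with BMAL1 only. The median of the lower value was 2.01 against 1.87, a difference that was 0 without BMAL1 replicate 2 and turned to -0.131 without RNAP2 replicate 1. A strength of 3 or more was reached by 55 of 545 genes with both (10.1%) and by 7 of 383 with BMAL1 only (1.83%). RNAP2 was somewhat stronger where BMAL1 was present, with a median −log10 p of 9.63 against 8.34 in replicate 1 and 6.27 against 4.93 in replicate 2 for genes with both and genes with RNAP2 only. The median fold enrichments were 5.54 against 5.00 and 4.08 against 3.58. The windows around the TSSs searched per gene were also longer, with a median of 40059 bp against 27171 bp. The part of window length in these differences was not tested. When the RNAP2 genes were ranked by RNAP2 strength and cut into 5 groups of 1674, 9.86% of the strongest group had BMAL1, against 5.20 to 6.63% in the others and 2.82% of genes without RNAP2. Of the 62 genes with BMAL1 strength of 3 or more, 42 were in that strongest group. Across the 452 distinct BMAL1 regions, Spearman's rho between BMAL1 and RNAP2 strength was 0.15, and it was 0.01 across the 413 regions with a BMAL1 strength under 3; regions of the same libraries are not independent replicates.

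**Figure D2:**
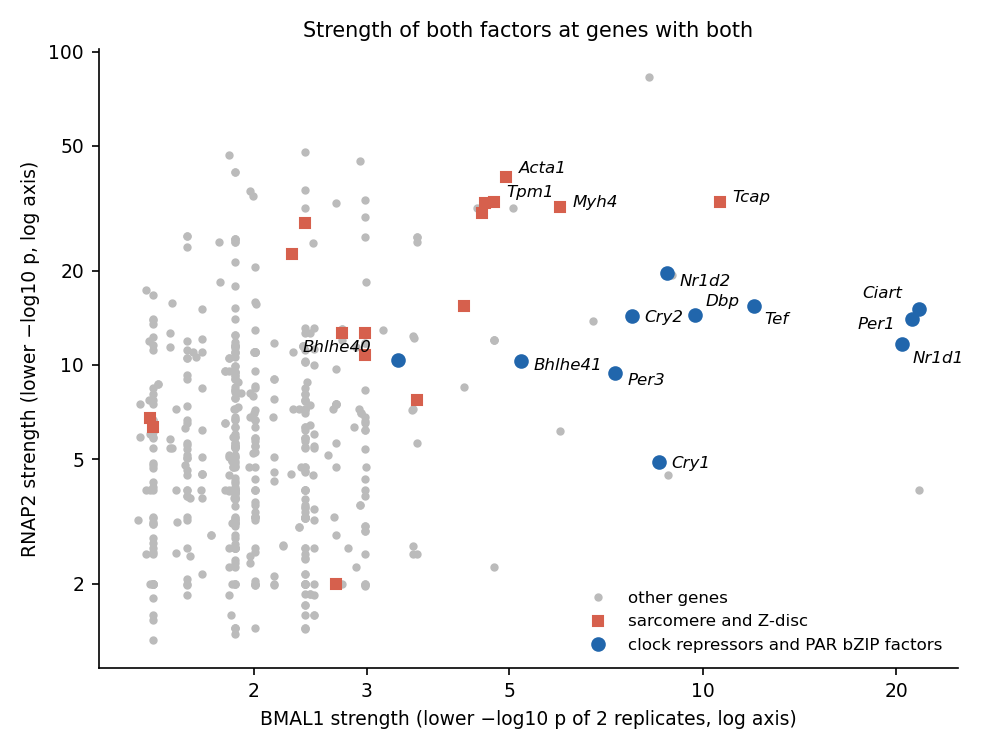
BMAL1 strength against RNAP2 strength, each the lower −log10 p of the replicates on a log axis, for the 545 genes with both factors, where a point is one gene and its strongest region of each factor. Clock genes in blue reach BMAL1 strengths up to 21.7, and sarcomere and Z-disc genes in red reach RNAP2 strengths up to 39.9.

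Clock genes were prominent among the strongest genes with both factors. Of the 15 strongest, *Ciart*, *Per1*, *Nr1d1*, *Tef* and *Dbp* were clock genes, *Tcap* and *Mrpl23* were not, and the other 8 were neighbours that share a region with one of them. Of 11 clock repressors 9 had both, where 2.48% of all genes did, *Per2* had BMAL1 only and *Nfil3* neither. A BMAL1 strength of 3 or more was reached by 10 of the 11, against 0.283% of all genes. *Per1*, a light-responsive repressor of the clock, had the highest BMAL1 value of the named genes in replicate 1, with −log10 p of 36.5 and 21.2 in replicates 1 and 2 (fold enrichment 8.67 and 7.44) and the summit at -322 bp from a TSS. The RNAP2 region nearest to it had 12.4 and 14.8, with its summit 398 bp away. The strongest RNAP2 region within reach of *Per1* (26.0 and 14.1) lay at the start of *Vamp2*, a neighbour that shares the BMAL1 region. *Ciart* (CHRONO), a repressor that binds BMAL1, had 24.05 and 21.7 at -166 bp from its TSS, in a region also counted for *BC028528*. RNAP2 had 9.34 and 2.86 there, with summits 165 bp apart, and 20.9 and 15.1 at a region 9637 bp downstream of a TSS.

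The genes of the nuclear receptor repressors were bound strongly as well. At *Nr1d1*, which encodes REV-ERBα, the strongest of 3 BMAL1 regions had 20.4 and 31.6 at -8156 bp from the nearest TSS, outside protein-coding genes. RNAP2 was present at that upstream site too (7.55 and 4.22, 126 bp away), and more strongly within the gene (19.0 and 11.7). Its relative *Nr1d2* had BMAL1 of 28.1 and 8.80 in its first part, 403 bp from a TSS, over an RNAP2 region of 19.6 and 21.1. The cryptochrome *Cry1* had 15.4 and 8.56 for BMAL1 and 7.17 and 4.91 for RNAP2. *Cry2* had BMAL1 of 7.77 and 14.3 in an intron at 8520 bp from the nearest TSS, with RNAP2 of 2.08 and 4.02 beside it and 14.3 and 20.3 at the promoter. BMAL1 and RNAP2 thus met at sites away from the promoter at *Nr1d1* and *Cry2*.

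*Per3* had BMAL1 of 16.6 and 7.30 and RNAP2 of 13.4 and 9.43, with summits 176 bp apart. The helix-loop-helix repressors were bound more weakly. *Bhlhe40* (DEC1) had 11.0 and 3.36 and *Bhlhe41* (DEC2) 7.11 and 5.22. At *Bhlhe41* the BMAL1 summit lay 7982 bp from the nearest RNAP2 summit counted for that gene, and its region overlapped no RNAP2 region. Of the PAR bZIP factors, which pass the rhythm on to metabolic genes, *Tef* had BMAL1 of 30.7 and 12.0 at an internal TSS over RNAP2 of 22.5 and 15.5, *Dbp* had 14.1 and 9.72 over RNAP2 of 32.2 and 14.5, and *Hlf* had neither in both replicates. The *Dbp* region also counted for its neighbours *Car11*, *Rpl18* and *Sphk2*.

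BMAL1 was found at 1 of 7 positive clock factors and ROR receptors and at 1 of 9 clock kinases and F-box proteins. These shares were not below the 4.23% of all protein-coding genes that had BMAL1. Of 7 activators and ROR receptors none had both, and with 2.48% of all genes in that class a list of this size would hold few. *Arntl* itself had RNAP2 of 5.65 and 3.80 at its promoter and no BMAL1 peak in replicate 1, with 3.61 in replicate 2. *Clock* had a weak BMAL1 region (2.995 and 2.15) and RNAP2 peaks of 3.45 and 3.05 that did not overlap. *Rora*, a receptor that activates *Arntl*, had RNAP2 only. Of 9 kinases and F-box proteins of the clock, 5 had RNAP2 only, where 35.7% of all genes did. *Gsk3b* had both, with a BMAL1 strength of 1.87.

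Genes of the contractile apparatus were the largest group of muscle genes with both factors. Of 45 sarcomere and Z-disc genes 16 had both (35.6%, against 2.48% of all genes), none had BMAL1 only, 21 had RNAP2 only and 8 neither. A BMAL1 strength of 3 or more was reached by 8 of the 45, against 0.283% of all genes. *Tcap*, the titin cap of the Z-disc, had BMAL1 of 11.0 and 10.6 over a very strong RNAP2 region of 141 and 33.2. The BMAL1 region was 3379 bp wide, with replicate summits 1634 bp apart, and it was also counted for *Pnmt*, *Stard3* and *Pgap3*. *Mrpl23*, a mitochondrial ribosomal protein gene outside the lists, had BMAL1 of 8.95 and 18.4 with the summit 14062 bp from its nearest TSS, in a region 7031 bp wide inside an RNAP2 region of 51.8 and 19.4. *Myh4*, the myosin of the fastest fibres, had BMAL1 of 8.68 and 5.99 over RNAP2 of 71.3 and 31.9 that ran over 22628 bp, and summits 54 bp apart. *Acta1*, skeletal muscle actin, had BMAL1 of 7.45 and 4.95 with RNAP2 of 131 and 39.9. *Tpm1*, a tropomyosin, had 4.74 and 5.18 at a BMAL1 region that overlapped no RNAP2 region.

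The sarcomere genes with both had stronger RNAP2 than those with RNAP2 alone, with median strengths of 19.0 and 5.52. The thin filament regulators *Tnnt3*, *Tnnc2* and *Tnni2* had BMAL1 strengths of 4.58, 4.53 and 2.29 and RNAP2 strengths of 32.9, 30.6 and 22.6, while *Neb* and *Pdlim3* had BMAL1 under 2. The BMAL1 regions overlapped RNAP2 regions in 11 of the 16 genes, and 1 of the 16 had CACGTG within 100 bp of its BMAL1 summit, against 7 of the 9 clock repressors with both. REV-ERBα, mapped at ZT 8 with a different antibody, was present at 14 of the 16 and at 8 of the 21 with RNAP2 only. The median width of the strongest RNAP2 region was 4309.5 bp in the 16 and 822 bp in the 21. Of the 10 fibre markers, which all but *Ckm* also belong to the gene lists used here, 8 had BMAL1, against 4.23% of all genes. The part of RNAP2 strength, RNAP2 width and REV-ERBα in the BMAL1 peaks was not tested.

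Metabolic and housekeeping lists had RNAP2 at most genes and BMAL1 at fewer, with shares for both factors that rest on 2 to 4 genes each and exceed the 2.48% of all genes. Both factors were present at 4 of 26 glycolysis and glycogen genes (15.4%), 4 of 37 genes of lipid storage and fatty acid oxidation (10.8%), 3 of 48 respiratory chain genes (6.25%), 2 of 35 ribosomal protein genes (5.71%) and 2 of 31 proteasome genes (6.45%), of which 2 more had BMAL1 only. RNAP2 was present in 96.2%, 75.7%, 89.6%, 97.1% and 64.5% of these lists, where 38.2% of all genes had it. *Eno3*, muscle enolase, had the strongest BMAL1 of the glycolytic genes (4.74 and 9.61), over RNAP2 of 35.5 and 12.0. *Pfkfb3*, which makes the activator of phosphofructokinase, had 2.995 and 2.98, 16293 bp from the nearest RNAP2 summit counted for that gene. *Plin4* and *Plin5*, which coat lipid droplets, shared 1 BMAL1 region of 2.98 and 2.40, and *Cd36*, the fatty acid transporter, had 2.48 and 2.40. The further members with both, *Acsl1*, *Uqcrc2*, *Uqcrh*, *Ndufb9*, *Psmb1*, *Psmd13*, *Aldoa*, *Pfkm* and *Rpl23*, had BMAL1 strengths of 1.81 to 2.30, and *Rpl18* shares the *Dbp* region.

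Of 25 atrophy and growth genes 19 had RNAP2 and none had a BMAL1 region, where 4.23% of all genes had one. Of 24 genes of excitation-contraction coupling, *Atp2a1*, the calcium pump of fast fibres (BMAL1 5.38 and 3.60, RNAP2 68.9 and 25.7), and *Pvalb*, a calcium buffer (2.45 and 1.83, RNAP2 74.8 and 46.8), had both. Of 20 myogenic regulators, MEF2 factors among them, *Mef2a* and *Eya4* had both and *Mef2c* had BMAL1 only. Among 23 immediate early genes, of which 95.7% had RNAP2, *Fosl1* had both, at a region that lay in the neighbouring *Ccdc85b*. Neuronal channel genes had RNAP2 in 4 of 25 and BMAL1 in none. These shares are to be read beside 2.48% of all genes with both, 35.7% with RNAP2 only and 38.2% with any RNAP2 region. No list was tested against others.

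**Figure D3:**
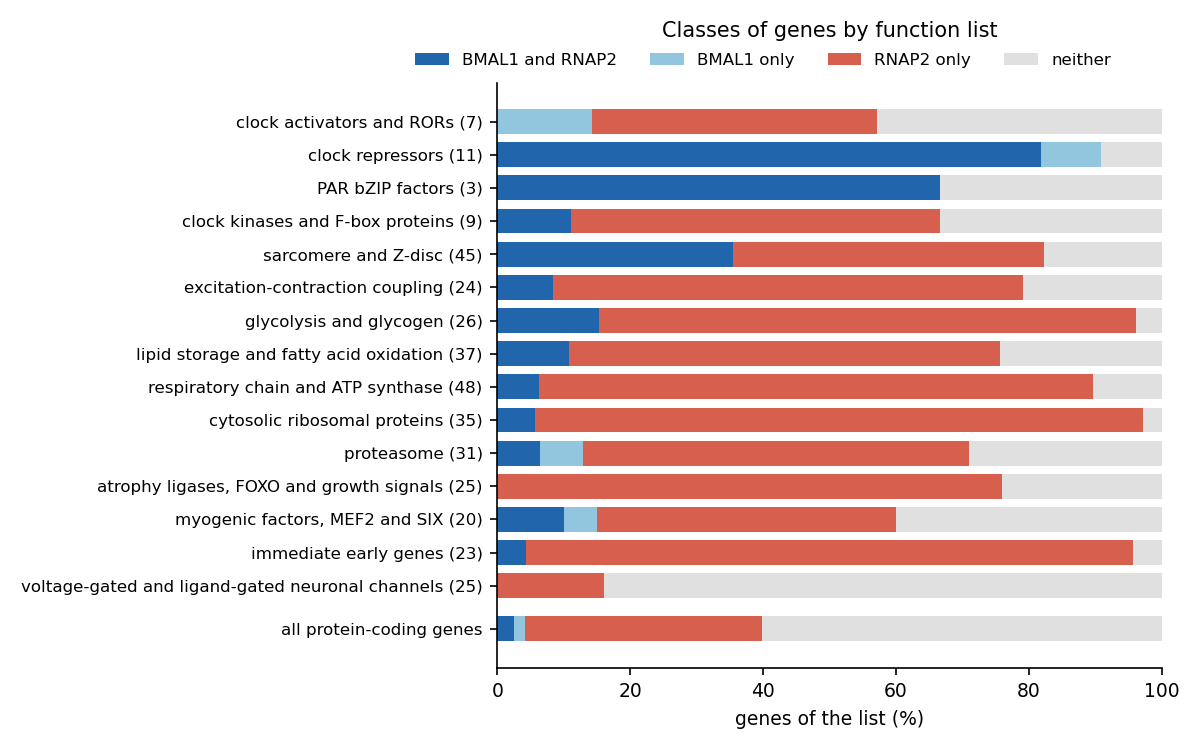
Percentage of the genes of each list with both factors, BMAL1 only, RNAP2 only or neither, with the number of genes in parentheses and all protein-coding genes in the lowest bar. Clock repressors (9 of 11 with both) and sarcomere genes (16 of 45) have the longest blue bars among lists of more than 3 genes.

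Few genes with BMAL1 only had a strong region. *Per2*, the partner of *Per1* in the repressor complex, had the strongest BMAL1 region of the class, with 20.5 and 5.68 at 42 bp from a TSS and the replicate summits 24 bp apart. RNAP2 peaks were called within 10 kb of *Per2* in both replicates (highest values 7.49 and 1.45), but they did not overlap, and *Per2* had both factors when either RNAP2 replicate was left out. *Igsf8*, a membrane protein of the immunoglobulin superfamily, followed with 6.31 and 5.10 in an intron. The other 6 genes named by strength, *Ndst4*, *B430218F22Rik*, *Mrps30*, *Zfp981*, *Gm21149* and *Fyn*, had strengths from 2.995 to 3.53, and *B430218F22Rik* and *Mrps30* shared 1 region.

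Most genes with BMAL1 only had RNAP2 peaks that the replicates did not share. RNAP2 peaks were present within 10 kb in both lists, without overlap, at 264 of the 383 genes (68.9%), in replicate 1 alone at 22, in replicate 2 alone at 81 and in neither list at 16. Among the 13185 genes with neither factor, 46.6% had RNAP2 peaks in both lists without overlap. Olfactory receptor genes, counted after the values were seen, made up 26 of the 383 (6.79%), 1 of the 545 with both and 5.17% of all protein-coding genes. The median promoter, from 250 bp before to 50 bp after the 5′ end of the gene, had a GC content of 53.7% for BMAL1 only, against 60.7% for genes with both, 60.0% for RNAP2 only and 51.3% for neither.

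Genes with RNAP2 only were the largest class, 35.7% of all, and no clock gene was among the 8 strongest. *Tex14*, a gene of germ cell bridges, had 122 and 101 at an intronic region, *Tob1*, an antiproliferative regulator, 104 and 97.9, and *Polr2a*, which encodes the largest subunit of RNAP2 itself, 152 and 89.5. The *Polr2a* region was also counted for *Slc35g3* and *Zbtb4*. *Jund*, a subunit of AP-1, had 81.7 and 71.5 in a region shared with *Iqcn*, and *Actg1*, cytoplasmic actin, 76.4 and 69.0. In these genes BMAL1 peaks were absent from both lists (*Jund*, *Iqcn*, *Slc35g3*), present in replicate 2 alone at 2.40 (*Zbtb4*, *Actg1*), or present in both without overlap, with values up to 3.60 (*Tex14*, *Tob1*, *Polr2a*). Over the whole class, BMAL1 peaks occurred in both lists without overlap at 2514 of 7825 genes, in replicate 2 alone at 4507, in replicate 1 alone at 174 and in neither at 630. The BMAL1 list of replicate 2 is the longer one, with 177669 peaks against 34737.

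The summits of the factors were close at genes with strong BMAL1 and far apart elsewhere. Distances ran to the nearest RNAP2 summit among the regions counted for the same gene. Closer RNAP2 regions more than 10 kb from its TSSs were not considered. Over all 545 genes the median distance from the BMAL1 summit to that RNAP2 summit was 8262 bp (quartiles 2144 to 24626 bp), and 113 (20.7%) had overlapping regions. For the 55 genes with BMAL1 strength of 3 or more it was 680 bp (292.5 to 2877.5), 35 lay within 1 kb and 47 (85.5%) overlapped. For the 26 genes with a strength of 5 or more it was 410.5 bp, and 25 overlapped. In the 490 weaker genes it was 9490 bp, with 13.5% overlapping. Restricting to genes with both factors at one TSS gave 3811 bp for all 363 and 479 bp for the 52 with a strength of 3 or more.

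These distances were larger than the distances between replicate summits of one factor. The summits of the 2 BMAL1 replicates lay a median of 90 bp apart at regions with a strength of 3 or more and 39 bp at 5 or more, and those of RNAP2 56 and 93.5 bp. At weaker regions BMAL1 summits differed by 247 bp between replicates. At a strength of 5 or more RNAP2 lay downstream of BMAL1 in the direction of the gene in 61.5% of genes (exact interval 40.6 to 79.8%), and over all genes in 31.9% (28.0 to 36.0%). Neighbouring genes that share a region are counted separately in these shares. RNAP2 summits were near the TSS in both classes, at a median of 120 bp for genes with both and 116 bp for RNAP2 only, whereas BMAL1 summits were at 3639 bp with both and 4677 bp with BMAL1 only.

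**Figure D4:**
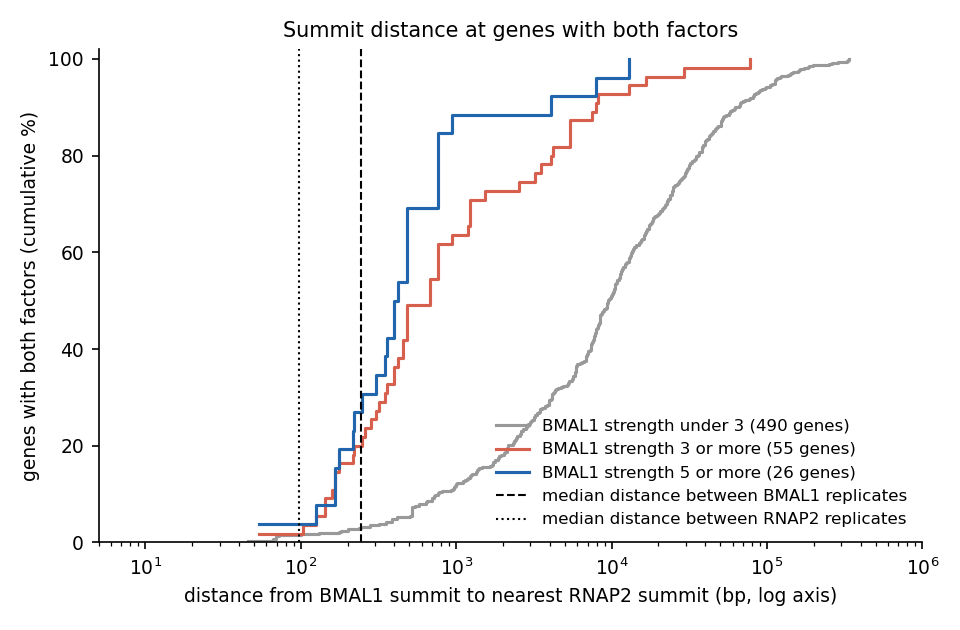
Cumulative percentage of genes with both factors against the distance from the BMAL1 summit to the nearest RNAP2 summit counted for the same gene (bp, log axis), by BMAL1 strength. Vertical lines mark the median distance between replicate summits over all regions, 245 bp for BMAL1 and 98 bp for RNAP2, and the medians of the classes are 9490, 680 and 410.5 bp.

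The E-box was most frequent at strong BMAL1 regions near genes with both factors. CACGTG, which reads the same on both strands, was within 100 bp of the summit in 15 of 48 regions with a strength of 3 or more near genes with both (31.3%, exact interval 18.7 to 46.3%), against 1 of 96 windows 2000 bp to each side. In the 454 weaker regions near such genes it was 3.08% (1.70 to 5.12%) against 1.32% of flanks. Near genes with BMAL1 only it was 6 of 335 (1.79%, 0.66 to 3.86%) against 2.24% of flanks, and 0 of the 6 strong ones, which at this number allows up to 45.9%. Away from protein-coding TSSs it was 1.84% against 1.52%, and 3 of the 31 strong ones there (9.68%, 2.04 to 25.8%) against 1 of 62 flanks, an interval that overlaps that of the 48. The variant CACGTT, searched on both strands, was in 3.39% of regions near genes with both against 1.89% of flanks, and CAGCTG, the E-box of myogenic factors, in 9.76% against 7.87%. At the 48 strong regions the order was the other way for CAGCTG, with 1 of 48 (2.08%, 0.053 to 11.1%) against 10 of 96 flanks (10.4%).

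**Figure D5:**
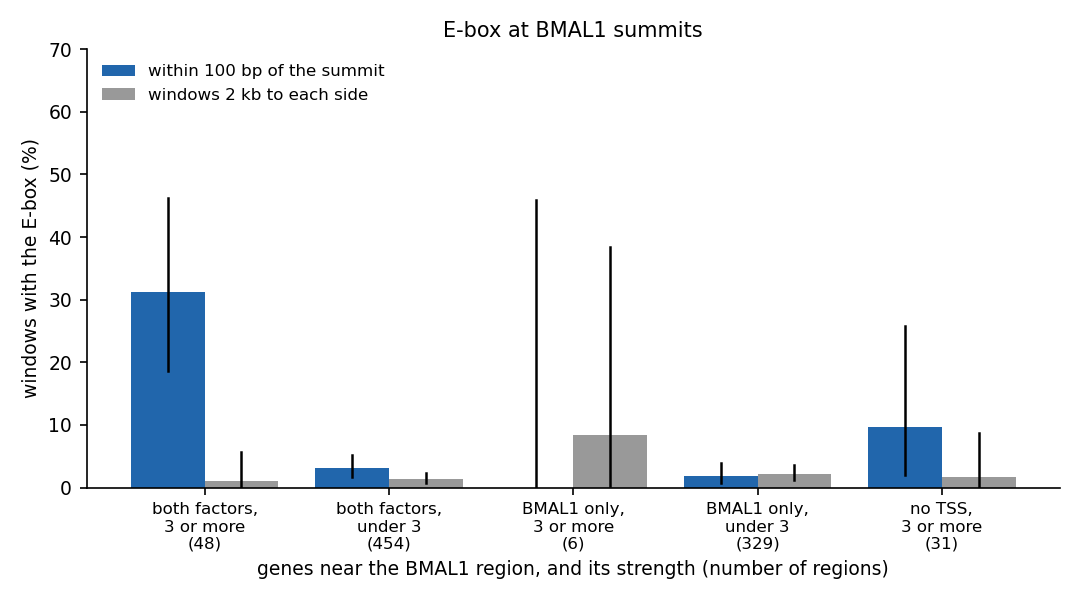
Percentage of windows with the E-box within 100 bp of the BMAL1 summit (blue) and in windows 2 kb to each side (grey), by gene class and BMAL1 strength, with the number of regions in parentheses and exact 95% intervals as lines. The 48 strong regions near genes with both reach 31.3%, the 31 strong ones with no TSS nearby 9.68%, and the classes under a strength of 3 stay at 3.08% or less.

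Strong BMAL1 regions with and without the E-box differed in their surroundings. The 15 with CACGTG, among them those of *Per1*, *Ciart*, *Nr1d1*, *Nr1d2*, *Tef*, *Dbp* and *Cry2* but also of *Coq10b* and *Actn3*, were a median of 781 bp wide with BMAL1 −log10 p of 11.0 and 8.80 in the replicates. The 33 without it included those of *Tcap*, *Myh4*, *Acta1*, *Atp2a1*, *Ckm* and *Txnip*. The clock genes *Cry1* and *Per3* were also on this side, as were further regions of *Nr1d1* and *Dbp*. The 33 were a median of 1399 bp wide with 5.38 and 4.95. The strongest RNAP2 region of their genes had a median strength of 12.9 and a width of 1398 bp with the E-box, and 24.8 and 4866 bp without it. BMAL1 overlapped RNAP2 in 14 of 15 and in 26 of 33, and REV-ERBα in 8 of 15 and in 23 of 33. *Coq10b*, *Ckm* and *Txnip* were named after their values were seen.

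Readouts that did not enter the classes also differed among them. REV-ERBα regions, present at 3.69% of protein-coding genes, were found at 21.5% of genes with both (exact interval 18.1 to 25.2%), 4.96% with BMAL1 only (3.01 to 7.64%), 6.77% with RNAP2 only and 1.09% with neither. The windows searched per gene had medians of 40059, 31903, 27171 and 20973 bp in these classes, and their part was not tested. By BMAL1 strength the share with REV-ERBα was 8.09% below 2, 13.3% at 2 to 3, 67.6% at 3 to 5 and 82.1% at 5 or more. It was 17.0% in the group of genes with the strongest RNAP2 and 3.29% in the weakest. CACGTG was in the promoter window of 13.2% of genes with both (10.5 to 16.3%), 5.22% with BMAL1 only (3.22 to 7.95%), 10.2% with RNAP2 only and 7.75% of all genes, and the CpG content, as observed over expected, was 0.761, 0.515, 0.748 and 0.525. These intervals cover counting error only and treat neighbouring genes as separate.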

How the data were processed

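ChIP-seq of gastrocnemius muscle was used as 1 list of peaks per sample, for 2 BMAL1 and 2 RNAP2 samples at ZT 4 and, as a further readout, 2 REV-ERBα samples at ZT 8. The authors mapped reads to mm10 with BWA 7.12, kept unique, de-duplicated reads, brought replicates to like depth and called peaks per sample over input with MACS2 2.1.1 at p 0.05. The deposited fold enrichment is a ratio over the input background at the summit, and the deposited −log10 p-value and −log10 q-value are those of the authors' MACS2 run. The deposited score was not used. Input reads and signal tracks were not used here, so the depth at each peak is unknown.

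Peaks on chromosomes were merged within a factor, and genes and TSSs came from GENCODE M21, of the same build. The summit was that of the replicate with the higher −log10 p. Circular shifts ran within the part of each chromosome that peaks cover, 1000 times, or 200 times for each alternative, and the code was tested on simulated regions. Sequences came from the RefSeq copy of GRCm38. Genes were named from the 15 strongest with both, the 8 strongest with BMAL1 only, the 8 strongest with RNAP2 only, clock genes, and up to 4 members with both of each other list. The sarcomere genes *Tnnt3*, *Tnnc2*, *Tnni2*, *Neb*, *Pdlim3* and *Actn3*, and *Myf5* and *Mef2c*, were named outside that rule after their values were seen. *Aldoa* has 2 gene records, and the first was used. Python 3.11.15, numpy 2.4.6, pandas 2.3.3, scipy 1.17.1 and pysam 0.24.0 were used. Replicate numbers were not taken as pairs, since no source ties samples of different factors to the same animal. The gene classes, gene lists and tests were chosen with earlier results of these data known. Alternatives were stricter thresholds, other distances and overlaps, equal list sizes and single replicates.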

Additional observations from a re-analysis of the deposited data

How the results depend on the processing

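The 383 genes with BMAL1 only and the 545 with both changed with nearly every setting, and the excess over shifted regions had the same direction under all of them. With −log10 p of at least 2 in every peak, 244 genes had both and 202 BMAL1 only, and the count with both was 1.901 times the shift mean. With at least 3, these were 51, 11 and 6.662. Overlap of at least 50% of the shorter peak gave 353, 255 and 1.799, a distance of 1 kb gave 124, 61 and 2.227, and 5 kb gave 339, 230 and 1.873. Equal list sizes gave 146, 126 and 2.539, and the 5′ end of the gene alone 279 genes with both. Local shifts lowered the ratio to 1.498. Asking for both factors at one TSS, chosen after seeing the data, gave 363. Regions of single replicates are far more numerous: without a replicate, genes with both ranged from 831 to 7566, BMAL1 only from 38 to 10279, RNAP2 only from 804 to 17522, and the ratio from 1.057 to 1.357. The count with both exceeded every one of the 200 shifts in each of these 11 alternatives.

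The median summit distance was 5283 bp at −log10 p of at least 2, 767 at 3, 7315 with the 50% overlap, 1377 at 1 kb, 5873 at 5 kb, 3000 with the 5′ end alone, 3923 with equal sizes, 8057 with summits of replicate 1 and 3811 at one TSS, and 3004 to 7901 without a replicate. The BMAL1 median at genes with both minus BMAL1 only, 0.136, was 0.0091 at a threshold of 2, 1.52 at 3, 0.494 with equal sizes, 0.118 for the mean −log10 p and 0.0147 for the fold. Without a replicate it ranged from -0.1311, where it changed sign without RNAP2 replicate 1, to 0.2844. The RNAP2 difference, 0.923, was 2.046, 8.601, 1.549 (50% overlap), 1.887 (1 kb), 1.292 (5 kb), 1.464 (5′ end), 4.477 (equal sizes), 1.072 (mean) and 0.463 (fold), and 0.0774 to 1.881 without a replicate. *Per1*, *Ciart*, *Nr1d1*, *Nr1d2*, *Tef*, *Dbp*, *Cry1*, *Per3*, *Bhlhe40*, *Bhlhe41*, *Tcap*, *Myh4*, *Acta1*, *Tpm1* and *Atp2a1* stayed in their class in all 11 alternatives, and *Cry2* in 9. The following genes with both kept their class less often: *Eno3* in 10, *Pfkfb3* in 9, and *Mrpl23*, *Plin4*, *Plin5* and *Pvalb* in 8. *Fosl1* and *Gsk3b* kept it in 7, *Cd36* and *Mef2a* in 6 and *Eya4* in 5. *Mrpl23*, with a BMAL1 strength of 8.95, left its class only at 1 kb, at 5 kb and with the 5′ end of the gene alone. Among genes with BMAL1 only, *Per2* kept it in 9, *Igsf8* in 7, *Clock* in 5 and *Fyn* in 4.

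No paired analysis was possible because no test across animals was made and no source ties same-numbered samples to the same mouse. Peaks hold no read counts, so the depth at a peak limits each value to an unknown degree. The lists hold few peaks on chromosome X, and 105 of its 948 genes had RNAP2 only.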
